A study of Mus musculus with 13 samples.

Results

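The genes described here are 10 regulators of the mesenchymal-epithelial transition, taken as every gene whose symbol in the platform's probe table was exactly 1 of 10 names. Of these, 6 encode transcriptional repressors of epithelial genes (Snai1, Snai2, Zeb1, Zeb2, Twist1 and Twist2) and 4 encode factors of epithelial cells (Grhl2, Esrp1, Ehf and Elf3). All 10 names were found, with 22 probes of the 45018 features on the array, and they are 10 of the 19087 genes that could be named. RNA of mouse cells was measured on 13 one-colour Agilent microarrays, 1 per sample. All cells lacked p19Arf, a cell cycle inhibitor from the Cdkn2a locus, and came from mice of a mixed C57BL/6-129 strain. iHep (4 arrays) were induced hepatocyte-like cells, each a single colony of epithelial cells grown from tail-tip fibroblasts that had received lentiviruses carrying 3 liver-enriched transcription factors, sampled at day 21 of induction. Per the series' design text, partial digestion with trypsin had been used to enrich for epithelial cells, so the colonies were selected for the state that is measured here. Hepatocyte (4 arrays) were primary liver cells after 21 days of culture, labelled as proliferating. TTF + 3TF (1 array) was the transduced tail-tip culture at day 21, labelled a mix of fibroblast and epithelial cells. MEF (1 array, embryonic fibroblasts) and TTF (3 arrays, tail-tip fibroblasts) had been cultured for 42 days. iHep and hepatocyte cells grew in modified Block's medium and TTF and MEF in DMEM with serum. Day and medium therefore cannot be told apart from cell group where iHep or hepatocyte is set against TTF. The same holds for day where TTF + 3TF is, while MEF and TTF shared day and medium.

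Epithelial cells hold together through E-cadherin and tight junctions, whereas fibroblasts lack them and spread on a collagen matrix. The zinc finger proteins of the Snail (Snai1, Snai2) and Zeb families and the basic helix-loop-helix Twist proteins bind E-box sequences and silence E-cadherin and other junction genes, directly or through each other. Grhl2, the splicing regulator Esrp1 and the ETS factors Ehf and Elf3 keep epithelial genes or epithelial splice forms on, and the Grhl2 and Zeb1 genes repress each other in human mammary cells. In the making of induced pluripotent or hepatocyte-like cells from fibroblasts, loss of the repressors and gain of epithelial genes is known as the mesenchymal-epithelial transition.

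A level below is the log2 intensity minus the array's own 75th percentile, averaged over a gene's probes, so levels of different genes are not compared with each other. Each difference between groups is on the log2 scale, followed by its standard error (SE), from a limma model fitted to the 4 iHep, 4 hepatocyte and 3 TTF arrays together. A gene was called at a Benjamini-Hochberg adjusted p under 0.05 over all genes and a change of at least 1 log2 unit. An array's limit of measurement was 3 times the lowest intensity nearby in the table. The 75th percentile of intensity ran from 1140 to 2260 over the arrays and 63.2% to 83.0% of features lay above the limit. The labels do not say whether the replicates are separate animals or cultures, and a p-value then covers only the spread between arrays. The cell labels were checked against marker lists: 9 of 9 measured hepatocyte markers lay above the limit on every iHep and hepatocyte array, and 8 of 8 fibroblast markers did so on the MEF and TTF arrays. These counts do not separate the labels, since 8 hepatocyte markers on MEF, 6 to 8 on TTF, 7 to 8 fibroblast markers on iHep and 8 on hepatocyte were also above the limit. The summed level of the hepatocyte markers did differ, at 8.19 to 9.50 in iHep and 7.04 to 8.93 in hepatocyte, against 0.18 on MEF and -2.0 to -0.23 in TTF. Libraries within 2 groups stood apart from each other. The summed level of the 8 fibroblast markers was 0.88, -1.87, 3.58 and 4.28 on iHep arrays 1 to 4 and 3.34, 2.64, 7.33 and 6.90 on hepatocyte arrays 1 to 4, against 7.55 to 7.91 on TTF. Hepatocyte arrays 3 and 4 came nearest to TTF, in a sum set mostly by Col1a1 (at most 6.91 in hepatocyte). Postn reached 0.07 in hepatocyte, against at least 2.66 in TTF, and Thy1 reached 2.49, against at least 4.36. Lum, Dcn and Fap went the other way, with medians of 2.15, 1.14 and -4.83 in hepatocyte and -4.55, -0.49 and -6.37 in TTF. Col1a2 and Pdgfra reached 3.47 and 2.44 in hepatocyte, against at least 3.03 and 1.52 in TTF. Of 6 macrophage markers, 2 to 5 lay above the limit on the iHep arrays, 6 on every hepatocyte array and 4 to 5 on the TTF arrays. Adgre1 was above it on 0 of 4 iHep and 0 of 3 TTF arrays. Single genes of the marker lists were chosen after their values were seen.

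The Snail and Zeb repressors act on the E-box CACCTG. The RefSeq promoter windows (build GRCm38.p6, 250 bases before to 50 after each start) were therefore searched for it on both strands. CAGGTG is the same site read from the other strand. Windows were at hand for 5 of the 10 regulators. Snai1 and Elf3 held 1 site each, 126 and 140 bases before the start, and the windows of Twist1, Twist2 and Zeb2 held none. Of a list of 40 genes known to be silenced by Snail and Zeb or activated by Grhl2, 26 had 34 windows, of which 67.6% held the site, against 20.2% of all 32851 windows. The looser E-box CANNTG, which includes CACCTG, was in 85.3% of the list's windows against 72.3% of all. The Grhl site AACCNGTT was in 8.82% against 2.09%, and the ETS core CCGGAAG was in 17.6% against 8.86%. These are matches of letters, not measured binding. The windows of Snai1 and Elf3 are shown because they are the only members' windows with the site, and those of Lsr (tricellular junction receptor) and Epcam (epithelial adhesion molecule) because their genes are followed below. Capitals mark CACCTG or CAGGTG, and each line runs 5′ to 3′ on the gene's strand.
Snai1 (chr2:167537945-167538244, plus strand): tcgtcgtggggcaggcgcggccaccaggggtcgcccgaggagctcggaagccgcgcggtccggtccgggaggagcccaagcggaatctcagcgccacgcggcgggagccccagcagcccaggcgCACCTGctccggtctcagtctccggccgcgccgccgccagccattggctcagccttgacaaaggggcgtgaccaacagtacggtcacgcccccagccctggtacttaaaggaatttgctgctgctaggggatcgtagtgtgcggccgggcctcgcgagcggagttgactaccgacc
Elf3 (chr1:135258423-135258722, minus strand): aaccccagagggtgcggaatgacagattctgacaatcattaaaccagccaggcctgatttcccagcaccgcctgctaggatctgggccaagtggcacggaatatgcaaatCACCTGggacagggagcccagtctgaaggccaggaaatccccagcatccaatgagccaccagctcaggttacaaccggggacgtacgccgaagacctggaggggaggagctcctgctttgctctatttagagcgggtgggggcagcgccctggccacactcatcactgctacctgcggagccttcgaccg
Lsr (chr7:30973420-30973719, minus strand): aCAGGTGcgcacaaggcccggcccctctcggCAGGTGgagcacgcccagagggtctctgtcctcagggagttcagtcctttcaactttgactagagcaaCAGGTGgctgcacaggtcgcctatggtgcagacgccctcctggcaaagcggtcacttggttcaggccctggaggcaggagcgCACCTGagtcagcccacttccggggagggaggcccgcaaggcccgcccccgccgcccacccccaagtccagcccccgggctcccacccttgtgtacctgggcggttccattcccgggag
Epcam (chr17:87635729-87636028, plus strand): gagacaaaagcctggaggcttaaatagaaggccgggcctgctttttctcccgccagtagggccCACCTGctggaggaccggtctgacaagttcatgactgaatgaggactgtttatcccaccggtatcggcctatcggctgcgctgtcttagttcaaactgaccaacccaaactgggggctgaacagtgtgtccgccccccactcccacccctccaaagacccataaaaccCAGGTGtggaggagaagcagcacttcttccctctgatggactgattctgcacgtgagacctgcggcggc
The Lsr window held 4 sites, 249, 219, 151 and 69 bases before the start, and the Epcam window 2, at 187 and 19 bases before it.

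The first comparison sets iHep against TTF and asks whether the fibroblast repressors were lower and the epithelial factors higher in the induced colonies. All 6 repressors fell in iHep, where 6.52% of all 19087 genes were called lower, and on no repressor did the iHep and TTF arrays overlap (12.8% of all genes lay lower without overlap, 13.5% higher and 26.4% in either direction). The median difference of the 6 was -4.21, against 0.07 over all genes. In cultures like these, fewer fibroblasts and less RNA per cell cannot be told apart. Of the epithelial factors, Ehf and Elf3 rose, where 6.86% of all genes were called higher, whereas Grhl2 and Esrp1 did not pass the test. In either direction 13.4% of genes were called. The 4 had a median difference of 4.36.

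The Twist genes, which encode helix-loop-helix factors of mesoderm and connective tissue, showed the largest repressor decreases. Twist1 lay at -6.19, -5.66, -4.0 and -3.29 on iHep arrays 1 to 4, against 2.41, 2.12 and 2.25 on TTF arrays 1 to 3. Every iHep array was thus far under every TTF array, and the 3 TTF arrays were close together. Twist1 fell by 7.04 ± 0.90 (SE, adjusted p = 0.00053), or 132-fold. Twist2 lay at -7.64, -2.45, -1.94 and -0.64 on the iHep arrays, against 3.78, 3.40 and 3.34 on TTF. The groups were apart, with iHep 1 not above the limit of measurement and far under the other 3 iHep arrays. Twist2 fell by 6.68 ± 1.34 (adjusted p = 0.0074), and the difference was -5.19 without iHep 1 (adjusted p = 0.00094).

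**Figure D1:**
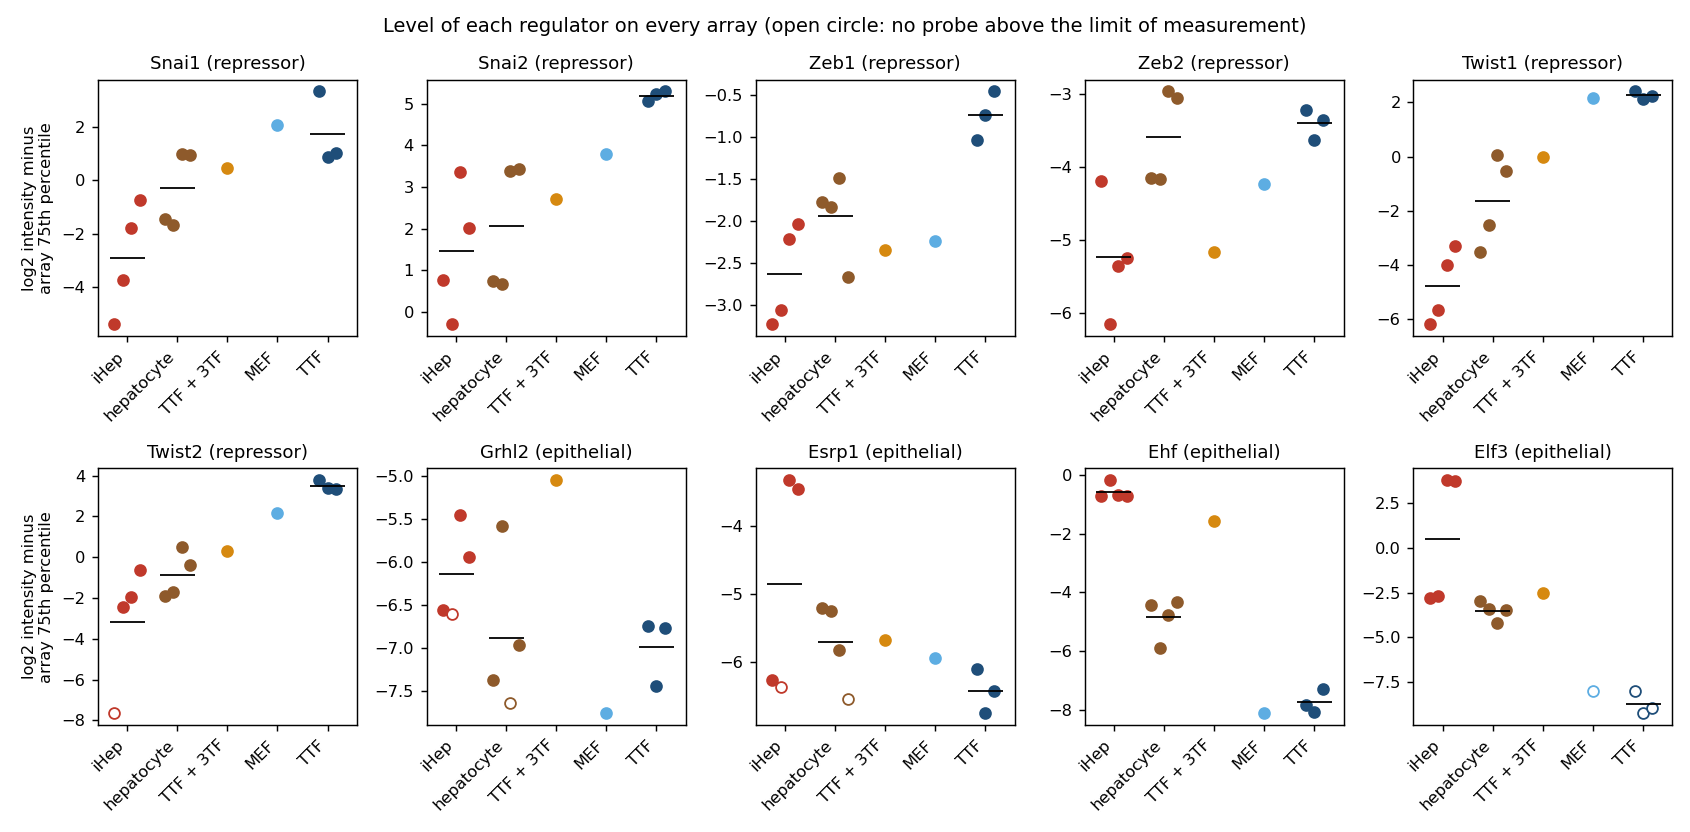
Level of each of the 10 regulators (log2 intensity minus the array's 75th percentile, a separate axis per gene) on the iHep, hepatocyte, TTF + 3TF, MEF and TTF arrays; points are arrays in replicate order, lines the means of groups with replicates, and open circles arrays with no probe above the limit. The 3 TTF arrays lie above all 4 iHep arrays for each repressor and below them for Grhl2, Ehf and Elf3.

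The Snail genes, named for the zinc finger repressors that silence E-cadherin, fell as well, with more spread. Snai1 lay at -5.42, -3.76, -1.80 and -0.75 on the iHep arrays, against 3.35, 0.88 and 1.01 on TTF. The groups did not overlap, iHep 4 came nearest to TTF, and TTF 1 stood well above the other TTF arrays. Snai1 fell by 4.68 ± 1.14 (adjusted p = 0.02). Snai2, also called Slug, lay at 0.75, -0.31, 3.35 and 2.0 on the iHep arrays, against a narrow 5.07, 5.23 and 5.30 on TTF. Its levels on iHep 3 and 4 were over those on iHep 1 and 2, and all 4 stayed under TTF. Snai2 fell by 3.75 ± 0.92 (adjusted p = 0.021). The call on Snai1 was lost without TTF 1 (-3.88, adjusted p = 0.08), and that on Snai2 without any 1 of the TTF arrays (-3.81 to -3.70, adjusted p = 0.055 to 0.075).

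The Zeb genes, zinc finger and homeodomain repressors, changed less. Zeb1 lay at -3.24, -3.06, -2.22 and -2.03 on the iHep arrays, against -1.04, -0.74 and -0.46 on TTF. The groups did not overlap, and the RefSeq mRNA probe of Zeb1 was bright on every array, with intensities of 3830 to 8270 in iHep and 17200 to 22800 in TTF. Zeb1 fell by 1.89 ± 0.38 (adjusted p = 0.0078), or 3.71-fold. Zeb2 lay at -4.19, -6.16, -5.35 and -5.25 on the iHep arrays, against -3.22, -3.63 and -3.35 on TTF. iHep 1 was the nearest to the fibroblasts. Zeb2 fell by 1.84 ± 0.47 (adjusted p = 0.025), a call lost without any 1 of the TTF arrays (adjusted p = 0.064 to 0.089), without iHep 3 (0.058) or iHep 4 (0.052), and with no scaling of the arrays (0.063).

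The 8 probes of Zeb2 did not move together, and the gene mean hides this. The 3 probes paired with its RefSeq mRNA fell in iHep against TTF, with differences of -3.44 ± 0.64, -3.50 ± 0.78 and -3.10 ± 0.86 (adjusted p = 0.0052, 0.014 and 0.038 over all probes). Probe 29297, the brightest of them, read 2800, 443, 396 and 585 on iHep arrays 1 to 4, against 10900, 6660 and 7900 on TTF. Averaged over the RefSeq mRNA probes alone, Zeb2 differed by -3.35 (adjusted p = 0.011), a larger decrease than the mean over all 8 probes gave. Probe 14585, paired with a cDNA clone, went the other way: it read 506 and 415 on iHep arrays 3 and 4, and at most 16.0 on each of the other 11 arrays. Its difference between iHep and TTF was 3.07 ± 1.27 (adjusted p = 0.16), and what this clone stands for relative to the Zeb2 transcript was not analysed here. Probe 43848 was above the limit on 0 of 13 arrays and adds no measure of Zeb2. The other 3 clone probes lay lower in iHep, 2 of them past the threshold.

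**Figure D2:**
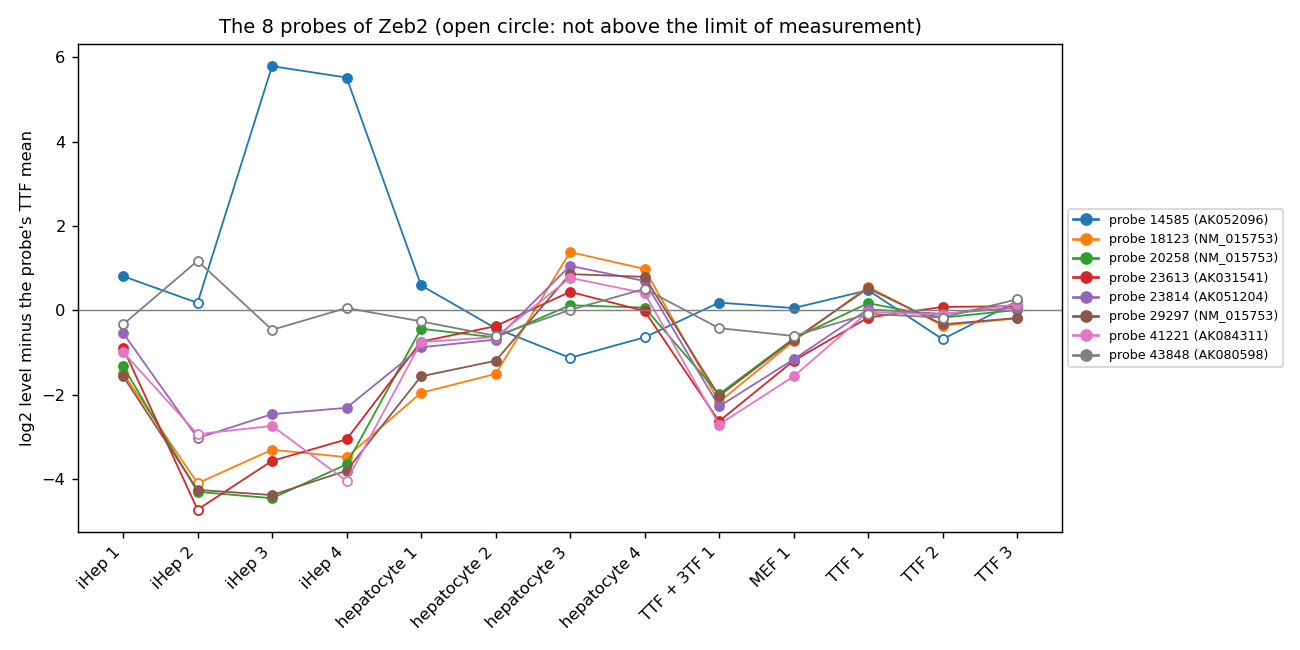
Log2 level of each of the 8 Zeb2 probes minus that probe's own TTF mean, across the iHep, hepatocyte, TTF + 3TF, MEF and TTF arrays; open circles are values not above the limit. The 3 probes of the RefSeq mRNA and 3 clone probes are lowest on iHep 2, 3 and 4. Probe 14585 stands far above its TTF mean on iHep 3 and 4, and probe 43848 stays under the limit.

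Among the epithelial factors, Ehf, an ETS factor of glandular and squamous epithelia, gave the steadiest rise. Ehf lay at -0.72, -0.18, -0.69 and -0.73 on the iHep arrays, against -7.84, -8.06 and -7.29 on TTF. The 4 colonies were within 0.54 of each other and all far above the fibroblasts. Ehf rose by 7.15 ± 0.39 (adjusted p = 2.5e-06). Of its 3 probes, 38622 was above the limit on 0 of 3 TTF arrays and 39480 on 1 of 3, so the size of this rise and the TTF level are partly set by background. Probe 19700, above the limit on all TTF arrays, rose by 4.10.

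Elf3, an epithelial ETS factor of gut and lung lining that is induced in inflammation, split the colonies. It lay at -2.80, -2.70, 3.79 and 3.76 on iHep arrays 1 to 4, and no TTF array was above the limit. iHep 3 and 4 were far over iHep 1 and 2, with a range of 6.59 in the group. By the group mean, Elf3 rose at least 260.2-fold in iHep (adjusted p = 0.0029). That fold is no lower bound for iHep 1 and 2, which read 269 and 295, against limits of 9.24 to 11.91 in TTF. iHep 3 and 4 read 25900 and 25100.

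Esrp1, which binds RNA and sets epithelial splice forms, split the same pairs at lower levels: -6.27, -6.37, -3.33 and -3.46 on the iHep arrays, against -6.10, -6.75 and -6.43 on TTF. iHep 1 and 2 lay within the TTF range and iHep 3 and 4 lay above it. Over the 4 colonies the difference was 1.57 ± 0.76 (adjusted p = 0.22, 95% interval -0.11 to 3.25). Grhl2, a Grainyhead factor that switches on E-cadherin and claudin genes, lay at -6.55, -6.61, -5.45 and -5.95 on the iHep arrays, against -6.74, -7.45 and -6.76 on TTF. The groups did not overlap, but most probe readings were close to the limit and iHep 2 was not above it. The difference was 0.85 ± 0.49 (adjusted p = 0.32, 95% interval -0.24 to 1.93). E-cadherin itself, Cdh1, rose by 10.07 ± 0.58, and Epcam by 3.57 ± 0.84 (adjusted p = 0.016).

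Hepatocyte against TTF asks which regulators also separated cultured liver epithelium from fibroblasts. It shares its TTF arrays with the first comparison, so the values are given side by side and no agreement is counted. Snai2 and Twist1 fell in hepatocyte and the other 4 repressors did not pass the test, where 4.91% of all genes were called lower. Of the epithelial factors Ehf rose, where 7.47% of all genes were called higher and 12.4% in either direction. In 4 repressors the hepatocyte arrays all lay below TTF, where 14.9% of all genes did, and in 2 epithelial factors all lay above, where 18.2% did (33.1% in either direction). Of all called genes 60.3% were higher, and 49.3% with quantile normalization of the arrays. The median difference was -2.59 over the repressors and 1.8 over the epithelial factors, against 0.07 over all genes.

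Twist1 lay at -3.50, -2.51, 0.07 and -0.53 on hepatocyte arrays 1 to 4, all under the TTF levels given above, and fell by 3.87 ± 0.90 (adjusted p = 0.018). Snai2 lay at 0.73, 0.66, 3.38 and 3.44 and fell by 3.15 ± 0.92 (adjusted p = 0.048). For both genes hepatocyte 3 and 4 stood between hepatocyte 1 and 2 and the fibroblasts. The Twist1 call was lost without any 1 of the TTF arrays (adjusted p = 0.05 to 0.065). That on Snai2 was lost without any 1 of TTF (0.096 to 0.14), iHep 1 (0.057), iHep 4 (0.056), hepatocyte 1 (0.12) or hepatocyte 2 (0.12), and with quantile normalization (0.054) or no scaling (0.065). Twist2, at -1.89, -1.72, 0.48 and -0.37, was apart from all TTF arrays with a difference of -4.38 ± 1.34 (adjusted p = 0.056), which passed the threshold without iHep 1 (0.002) or iHep 4 (0.041). Snai1 lay at -1.45, -1.66, 0.98 and 0.96, so hepatocyte 3 and 4 were inside the TTF range, and differed by -2.04 ± 1.14 (adjusted p = 0.28).

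With only these 2 groups in the fit, or without iHep 1 and 2 or iHep 3 and 4, 4 repressors and 2 epithelial factors were called, where 2989, 3298 and 3100 genes were called in all, against 2363. Among the repressors, the Zeb genes differed least between hepatocyte and TTF. Zeb1 lay at -1.77, -1.83, -1.49 and -2.67 in hepatocyte, below every TTF array, with a difference of -1.20 ± 0.38 (adjusted p = 0.066). Its RefSeq mRNA probe alone fell by 1.76 ± 0.40 (adjusted p = 0.016). Zeb2 lay at -4.15, -4.16, -2.97 and -3.05, on both sides of TTF, and differed by -0.18 ± 0.47 (adjusted p = 0.85, 95% interval -1.22 to 0.86). Zeb2 is also made by macrophages, and the 6 macrophage markers summed to 6.29, 5.78, 3.45 and 4.41 on hepatocyte arrays 1 to 4, against -0.49 to -0.10 on TTF. Hepatocyte arrays 1 and 2 had more macrophage marker signal and less Zeb2, but also the lower summed fibroblast markers given above. The part of these cells in the Zeb2 level was not tested.

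Ehf lay at -4.42, -5.89, -4.76 and -4.33 in hepatocyte and rose by 2.88 ± 0.39 (adjusted p = 0.00096), with no overlap with TTF and the same limit on the size. Elf3 lay at -2.96, -3.41, -4.18 and -3.48, at least 16.0-fold over the limit in TTF, with an adjusted p of 0.053 that passed the threshold without any 1 iHep array (0.033 to 0.035). iHep arrays enter here through the shared estimate of spread. Esrp1 and Grhl2 overlapped with TTF and differed by 0.72 ± 0.76 (adjusted p = 0.6) and 0.10 ± 0.49 (0.93). Most hepatocyte readings of these 2 regulators were near the limit of measurement. Grhl2 probe 4537 on hepatocyte 2 was not, at 1020 against a limit of 9.63. Cdh1 rose by 9.03 ± 0.58 in hepatocyte (adjusted p = 8.2e-06).

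iHep against hepatocyte asks how the colonies compared with liver cells in the same medium at the same day. Twist1 and Zeb2 fell in iHep, where 7.5% of all genes were called lower, and Ehf rose, where 6.25% were called higher and 13.7% in either direction. The arrays of both groups lay apart for Zeb2, where 11.2% of all genes lay lower without overlap, and for Ehf and Elf3, where 9.69% lay higher and 20.9% in either direction. The median difference was -1.97 over the repressors and 2.44 over the epithelial factors, against -0.02 over all genes.

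Ehf rose by 4.27 ± 0.36 in iHep over hepatocyte (adjusted p = 6.2e-05), with every colony above every hepatocyte array. Zeb2 fell by 1.65 ± 0.44 (adjusted p = 0.029), and its 3 RefSeq mRNA probes differed by -3.21 ± 0.59, -3.22 ± 0.73 and -2.82 ± 0.80 (adjusted p = 0.006, 0.015 and 0.04). Twist1 fell by 3.17 ± 0.83 (adjusted p = 0.028), although iHep 4 at -3.29 was above hepatocyte 1 at -3.50. The Zeb2 call was lost without iHep 2, 3 or 4 (adjusted p = 0.053 to 0.067) or hepatocyte 3 or 4 (0.072 to 0.075), and that on Twist1 without iHep 1 or 2 (0.058 to 0.065) or hepatocyte 3 or 4 (0.068 to 0.07). Both were lost with no scaling of the arrays (0.077 for Zeb2 and 0.051 for Twist1) and with only the 2 groups in the fit (0.064 for each). Among the macrophage markers Lyz2 had a median level of -6.39 in iHep and 4.19 in hepatocyte, and Tyrobp -6.39 and 2.87, while Cd14 at 3.72 to 5.04 made up nearly all of the list's sum in iHep (3.73 to 5.05, against 3.45 to 6.29 in hepatocyte). Their part in the Zeb2 difference was not tested. Elf3 was 4.02 ± 1.45 higher (adjusted p = 0.089), with all 4 colonies above all hepatocyte arrays. It passed the threshold without iHep 1 (0.036) or iHep 2 (0.035). The size came from iHep 3 and 4, at 3.79 and 3.76. iHep 1 and 2, at -2.80 and -2.70, lay just over hepatocyte 1 at -2.96. Under the alternatives run by gene the Elf3 difference ran from 0.76 to 7.28. Snai1, Snai2, Zeb1, Twist2, Grhl2 and Esrp1 overlapped between the groups, with differences of -2.64 to 0.85. Of these, Zeb1 was at 0.03 by its RefSeq mRNA probe, with an SE of 0.37.

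**Figure D3:**
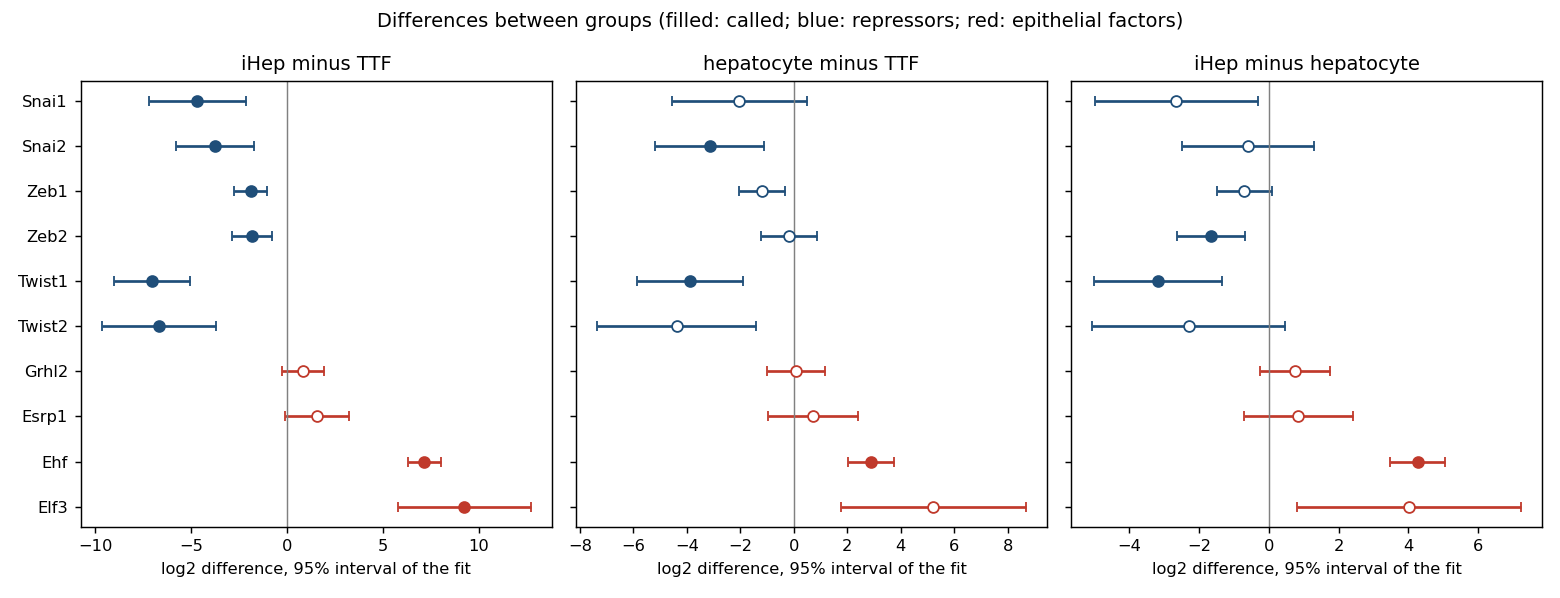
Log2 difference of each regulator in iHep minus TTF, hepatocyte minus TTF and iHep minus hepatocyte, with the 95% interval of the limma fit; filled points were called, blue marks repressors and red epithelial factors. All 6 repressors lie left of 0 in iHep minus TTF with intervals that exclude 0, and Ehf lies right of 0 in every comparison. Against TTF, the points of Elf3 and in part of Ehf rest on TTF signals under the limit, so their distance from 0 is not a measured size.

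N-cadherin and vimentin are the textbook mesenchymal counterparts of E-cadherin and the keratins. Vim, the intermediate filament of mesenchymal cells, fell by 1.70 ± 0.47 in iHep against TTF (adjusted p = 0.036), and its differences of -0.71 in hepatocyte against TTF and -1.0 in iHep against hepatocyte were not called. Cdh2, which encodes N-cadherin and is also a cadherin of normal hepatocytes, lay at -4.03, -5.09, -4.83 and -5.41 in iHep and -2.82, -3.71, -1.50 and -1.74 in hepatocyte, against -4.53, -4.49 and -5.11 in TTF. iHep overlapped TTF, and all hepatocyte arrays were above both. Cdh2 rose by 2.27 ± 0.53 in hepatocyte over TTF (adjusted p = 0.019) and fell by 2.40 ± 0.49 in iHep against hepatocyte (adjusted p = 0.0095).

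The mean level of the 6 repressors was -4.32, -3.57, -1.99 and -1.66 on iHep arrays 1 to 4 and -2.01, -1.87, 0.08 and -0.37 on hepatocyte arrays 1 to 4, against 1.21 to 1.73 on TTF. The arrays with the higher repressor mean, 3 and 4 in both groups, were also those with the higher summed fibroblast markers given above. Single repressors differed from this: Zeb2 was highest among iHep on array 1 (-4.19), and Zeb1 lowest among hepatocyte on array 4 (-2.67). The part of these markers in the repressor levels was not tested. The 7 stellate cell markers summed to 1.77, 1.91, 5.34 and 5.20 on hepatocyte arrays 1 to 4, against 4.54 to 6.14 on TTF, with 5 to 7 above the limit on iHep, 7 on hepatocyte and 6 to 7 on TTF. The TTF sum was nearly all Pdgfrb, which fibroblasts share (4.54 to 6.14). The others had higher medians in hepatocyte, such as Des at -1.37 in hepatocyte and -6.25 in TTF, and Reln at -2.28 in hepatocyte and -8.69 in TTF. Lrat was above the limit on 1 of 4 iHep, 4 of 4 hepatocyte and 1 of 3 TTF arrays. The part of stellate cells in the repressor levels was not tested either.

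Counts of called repressors depended on these arrays. Without hepatocyte 3 and 4, the 6 decreases in iHep against TTF and the 2 in hepatocyte against TTF stayed as counts, while iHep against hepatocyte had 0. Without hepatocyte 1 and 2, 0 repressors were called in hepatocyte against TTF and 2 in iHep against hepatocyte. Without iHep 1 and 2, 4 repressors were called lower in iHep against TTF, although 1995 of all genes were, against 1244 with all arrays. Without iHep 3 and 4, 5 repressors were called lower, where 1167 of all genes were. These pairs of arrays were chosen with earlier results known.

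The mean of the 4 epithelial factors minus that of the 6 repressors puts each array on 1 scale that can be read across arrays. It was 0.24, -0.40, 0.57 and 0.07 on iHep arrays 1 to 4, -2.98, -3.16, -5.67 and -4.96 on hepatocyte arrays 1 to 4, -3.03 on TTF + 3TF, -8.08 on MEF, and -8.89, -9.08 and -8.71 on TTF arrays 1 to 3. The iHep values were close together but made up differently. iHep 1 and 2 had the lowest repressor means of all 13 arrays. iHep 3 and 4 had the highest epithelial means, -1.42 and -1.59, against -4.09 and -3.97 on iHep 1 and 2. The repressor mean of iHep 1 includes Twist2, which was not above the limit there. The epithelial means differed mostly through Elf3 and Esrp1, with iHep ranges of 6.59 and 3.04, against 1.15 for Grhl2 and 0.54 for Ehf.

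**Figure D4:**
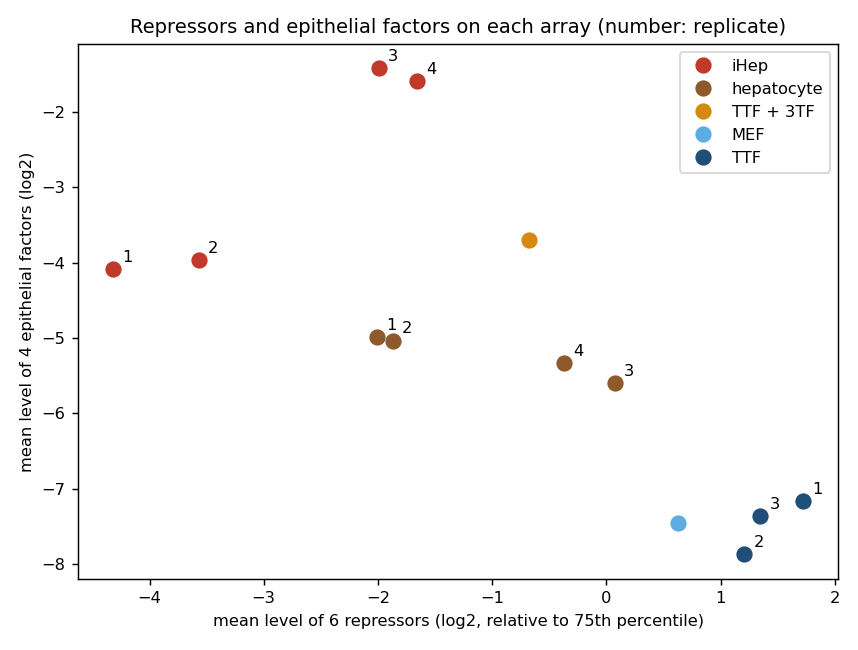
Mean level of the 4 epithelial factors against that of the 6 repressors on each array (log2, relative to the array's 75th percentile); numbers are replicates, and colours the iHep, hepatocyte, TTF + 3TF, MEF and TTF groups. The 3 TTF arrays sit at the lower right, iHep 1 and 2 at the far left, and iHep 3 and 4 at the top.

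TTF + 3TF, the mixed transduced culture sampled at the same day as the iHep colonies, had 1 array and so no test. A gene was counted where it lay at least 2 log2 units from the mean of the replicated group and outside its range. Against TTF, Snai2 (difference -2.50), Twist1 (-2.27) and Twist2 (-3.22) were counted lower, where 3.67% of all genes were, and Ehf and Elf3 higher, where 6.49% were (10.2% in either direction). The median over all genes was -0.17 here, and -0.03 with quantile normalization. For Elf3 all TTF arrays, and for Ehf 2 of its 3 probes on most TTF arrays, were under the limit, so no size is given. Ehf lay at -1.56 on this array, nearer to iHep than to hepatocyte. Snai1, Zeb1 and Zeb2, at 0.48, -2.34 and -5.16, were below every TTF array but within 2 log2 units of its mean. The Zeb2 level was inside the iHep range. Grhl2, at -5.05, was the highest of all 13 arrays for this gene and 1.94 above the TTF mean, or 2.10 with no scaling of the arrays, which passes the count's threshold. That rests on probe 4537, which read 1150 on TTF + 3TF and 1020 on hepatocyte 2, against 12.3 to 130 on the other 11 arrays.

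Against iHep, the mixed culture had higher Snai1 (3.41), Twist1 (4.77) and Twist2 (3.46), where 2.77% of all genes were counted higher, and no epithelial factor was counted in either direction (1.23% of all genes were counted lower, 3.99% in all). Its 8 fibroblast markers summed to 5.95, against -1.87 to 4.28 in iHep, and its 9 hepatocyte markers to 8.58, within the iHep range of 8.19 to 9.50. The part of fibroblasts in the mix was not tested. Cdh1 lay at 2.76 on TTF + 3TF, inside the iHep range of 1.95 to 4.0, and 9.83 above the TTF mean. Vim differed from the TTF mean by -1.43.

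MEF against TTF sets fibroblasts of another origin beside the starting cells. No regulator was counted, where 6.06% of all genes were (4.02% higher and 2.04% lower), and differences ran from -1.50 (Zeb1) to 0.48 (Esrp1), with Elf3 under the limit on both sides. Snai1 and Twist1 lay at 2.08 and 2.18 on MEF, inside the TTF range. Snai2 at 3.80, Twist2 at 2.19, Zeb1 at -2.25 and Zeb2 at -4.23 were each under all TTF arrays. Cdh1, at -4.59 on MEF, was counted higher, 2.48 above the TTF mean, while Epcam, Vim and Cdh2 were not counted.

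Ordered by group mean, Snai2, Twist1 and Twist2 ran TTF, MEF, TTF + 3TF, hepatocyte, iHep, and Snai1 had MEF before TTF. In each of these 4 genes TTF + 3TF lay inside the hepatocyte range and the hepatocyte and iHep arrays overlapped, so those neighbours are not separated. TTF and MEF were not separated for Snai1 and Twist1. Zeb1 and Zeb2 ran TTF, hepatocyte, MEF, TTF + 3TF, iHep, with TTF + 3TF inside the iHep range for both. Hepatocyte overlapped TTF for Zeb2, and MEF lay inside the hepatocyte range for Zeb1. By the RefSeq mRNA probe of Zeb1 alone, MEF at 2.49 was above every hepatocyte array (at most 2.42), so this order depends on the probe. Ehf ran iHep, TTF + 3TF, hepatocyte and then the fibroblasts, with no overlap down to them, and MEF and TTF were not ordered because probes of Ehf were under the limit in both. Elf3 ran iHep, TTF + 3TF, hepatocyte, where TTF + 3TF lay inside the iHep range, and MEF and TTF, both under the limit, had no order. Esrp1 ran iHep, TTF + 3TF, hepatocyte, MEF, TTF, with the groups from iHep to MEF overlapping. Grhl2 ran TTF + 3TF, iHep, hepatocyte, TTF, MEF, with iHep, hepatocyte and TTF joined by overlaps of neighbours.

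Genes that the repressors silence or Grhl2 activates were the largest list examined beside the regulators. The counts of this and the following lists stand beside the shares of all genes called: 6.86% higher and 6.52% lower in iHep against TTF, 7.47% and 4.91% in hepatocyte against TTF, and 6.25% and 7.5% in iHep against hepatocyte. Of 39 measured, 24 rose and 0 fell in iHep against TTF, with a median difference of 3.57. In hepatocyte against TTF 23 rose and 0 fell, with a median of 2.99. Between iHep and hepatocyte 5 rose and 2 fell. Mal2, a transport protein of polarised epithelial cells, rose at least 1892-fold in iHep and at least 987-fold in hepatocyte over TTF (adjusted p = 8.8e-05 and 0.00019), with all TTF arrays under the limit. Lsr, whose window with 4 E-boxes is shown above, lay at 6.50, 6.58, 5.54 and 5.34 in iHep, against -3.60, -4.71 and -4.67 in TTF, and rose by 10.32 ± 0.59 (adjusted p = 2.9e-06). Krt8, a keratin of simple epithelia, rose by 12.82 ± 1.48 in hepatocyte over TTF (adjusted p = 0.00039).

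Members of that list also differed between the epithelial groups. The tight junction genes Cldn7 and Tjp3 rose by 3.75 ± 0.59 and 3.51 ± 0.86 in iHep against hepatocyte (adjusted p = 0.0026 and 0.021). Cldn6, an embryonic claudin, fell by 4.41 ± 1.14 and Marveld2, the tricellular junction gene, fell by 4.23 ± 0.66 (adjusted p = 0.027 and 0.0024), with 3 and 2 of 4 iHep arrays above the limit. The groups overlapped for Cldn6, with iHep 2 at -4.18 above hepatocyte 2 at -5.65. Epcam lay at -3.94, -3.15, -1.37 and -0.39 in iHep and -5.68, -4.11, -5.57 and -3.32 in hepatocyte, against -5.40, -5.81 and -6.15 in TTF. iHep 3 and 4, the colonies with high Elf3 and Esrp1, had the highest Epcam, and hepatocyte overlapped TTF.

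Mesenchymal effector genes, which encode matrix and cytoskeletal proteins of fibroblasts, went lower. Of 28 measured, 19 fell and 0 rose in iHep against TTF (median -4.73). In hepatocyte against TTF 6 fell and 2 rose (median -1.85), and in iHep against hepatocyte 11 fell and 0 rose (median -2.07). Lox, the collagen cross-linking enzyme, fell by 9.22 ± 1.31 and the fibrillar collagen gene Col5a2 fell by 9.62 ± 1.86 in iHep against TTF (adjusted p = 0.001 and 0.0059). Of the matrix genes of activated fibroblasts, Postn fell by 5.23 ± 0.86 and Tnc fell by 4.34 ± 0.82 in hepatocyte against TTF (adjusted p = 0.0029 and 0.0067). Lum, a matrix proteoglycan, went the other way there and rose by 5.80 ± 1.07 (adjusted p = 0.0059), and it fell by 8.86 ± 0.99 in iHep against hepatocyte (adjusted p = 0.00036), where 2 of 4 iHep arrays were above the limit.

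**Figure D5:**
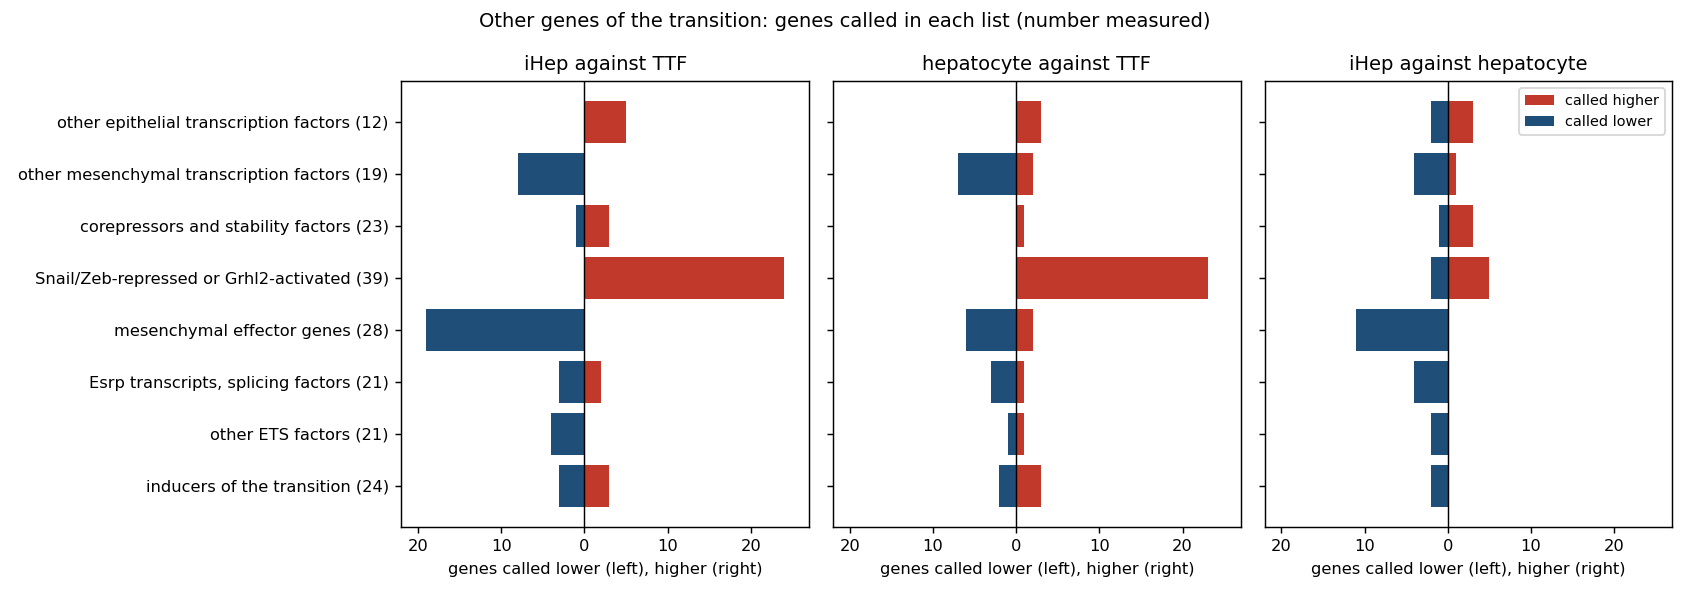
Number of genes called higher (right) and lower (left) in 8 lists of other genes of the transition, in iHep against TTF, hepatocyte against TTF and iHep against hepatocyte; the number measured stands in brackets. Genes silenced by Snail and Zeb or activated by Grhl2 had 24 called higher in iHep and 23 in hepatocyte over TTF, and the mesenchymal effector genes 19 called lower in iHep.

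Other mesenchymal transcription factors were also measured: 8 of 19 fell and 0 rose in iHep against TTF, and 7 fell and 2 rose in hepatocyte. The homeobox gene Prrx2 fell by 7.71 ± 1.05 in iHep and fell by 6.50 ± 1.05 in hepatocyte (adjusted p = 0.00076 and 0.0027), and the forkhead gene Foxc2 fell by 6.03 ± 0.69 in iHep (adjusted p = 0.00029). The 2 that rose in hepatocyte were Tcf21 by 4.02 ± 0.64 and Foxf1 by 2.44 ± 0.58 (adjusted p = 0.0026 and 0.019). They were above the limit on 2 and 1 of 3 TTF arrays, so these sizes are partly set by background. Both are known from stellate cells or other visceral mesenchyme, and the stellate markers of those arrays are given above. Tcf21 fell by 4.42 ± 0.60 and Foxc2 fell by 2.98 ± 0.64 in iHep against hepatocyte (adjusted p = 0.0011 and 0.012), with Tcf21 above the limit on 2 of 4 iHep arrays. Tcf3, an E protein that partners Twist factors, rose there by 1.07 ± 0.31 (adjusted p = 0.041).

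Of 12 other epithelial transcription factors measured, 5 rose and 0 fell in iHep against TTF, and 3 rose in hepatocyte. Foxa2, a forkhead pioneer factor of endoderm, rose by 7.96 ± 0.34 in iHep and 11.53 ± 0.34 in hepatocyte over TTF (adjusted p = 5.9e-07 and 3.3e-08), where 1 of 3 TTF arrays was above the limit. Foxa2 fell by 3.57 ± 0.31 in iHep against hepatocyte (adjusted p = 8.2e-05). On the MEF array it lay at 1.74, above every iHep array (at most -0.43). Foxa1, its relative, rose by 4.28 ± 0.45 in hepatocyte over TTF (adjusted p = 0.0002) and fell by 4.6 ± 0.41 in iHep against hepatocyte (adjusted p = 9.2e-05), with 2 of 4 iHep arrays above the limit. Tfcp2l1, a member of the Grainyhead-like superfamily found in kidney and gland ducts, rose by 6.98 ± 0.34 in iHep over TTF (adjusted p = 1.2e-06). Only 1 of 3 TTF arrays was above the limit for Tfcp2l1, so that size is partly set by background. Over hepatocyte Tfcp2l1 rose by 3.22 ± 0.31 in iHep (adjusted p = 0.00014), and Klf5, a factor of gut crypts, by 3.69 ± 0.67 (adjusted p = 0.005). Grhl1 and Ovol2 were chosen after their values were seen. Grhl1, a relative of Grhl2, rose by 3.92 ± 0.69 in iHep over TTF (adjusted p = 0.0036). Ovol2, a repressor of Zeb1 in epithelial cells, rose by 2.06 ± 0.41 over TTF and by 1.64 ± 0.38 over hepatocyte (adjusted p = 0.0068 and 0.016).

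Ehf and Elf3 belong to the large ETS family. Of 21 other ETS factors measured, 0 rose and 4 fell in iHep against TTF, and 1 rose and 1 fell in hepatocyte. In hepatocyte these shares are near or under those of all genes, and nothing is read from the counts. Etv1 fell by 3.97 ± 0.86 and Fli1 fell by 2.86 ± 0.78 in iHep (adjusted p = 0.011 and 0.033). Erg, like Fli1 an ETS factor of endothelium and blood, rose by 2.69 ± 0.68 in hepatocyte over TTF (adjusted p = 0.026), and Fli1 fell by 4.99 ± 0.72 in iHep against hepatocyte (adjusted p = 0.0015). The 8 endothelial markers summed to -3.56 to 1.1 in iHep and 0.01 to 2.15 in hepatocyte, against -4.19 to -1.72 in TTF, with 4 to 6, 7 to 8 and 5 to 6 of them above the limit. The highest iHep sum came mainly from Cdh5 (at most 0.82). Emcn and Tie1 were above the limit on 0 iHep and 0 TTF arrays, with a median Emcn level of -0.02 in hepatocyte, and Cldn5 had medians of -5.50 in iHep and -0.07 in hepatocyte. The part of endothelial cells was not tested.

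Beside Esrp1, 21 transcripts it regulates or other splicing factors were measured: 2 rose and 3 fell in iHep against TTF, 1 rose and 3 fell in hepatocyte, and 0 rose and 4 fell between the epithelial groups. Esrp2, its paralogue, lay at -0.02, 0.33, 2.07 and 1.82 in iHep and 0.92, 1.46, -0.21 and 0.19 in hepatocyte, against -2.50, -5.04 and -4.88 in TTF. Every iHep and hepatocyte array was above every TTF array, and MEF, at -0.85, lay between them. Esrp2 rose by 5.19 ± 0.73 in iHep and 4.73 ± 0.73 in hepatocyte (adjusted p = 0.00091 and 0.0021). Rbm47, another RNA-binding protein of epithelial splicing, rose by 1.61 ± 0.47 in iHep (adjusted p = 0.043). Fgfr1, a receptor of mesenchymal cells, fell by 3.07 ± 0.31 in iHep and fell by 2.02 ± 0.31 in hepatocyte (adjusted p = 0.00012 and 0.0019). Splice forms themselves were not measured here.

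Of 23 corepressors and stability factors of Snail and Zeb, 3 rose and 1 fell in iHep against TTF, with a median of 0.05, near the 13.4% of all genes called, and nothing is read from this count. Id2, which blocks helix-loop-helix factors, rose by 2.02 ± 0.39 in iHep and 3.05 ± 0.39 in hepatocyte (adjusted p = 0.0057 and 0.00071). Prkd1, a kinase that phosphorylates Snail, fell by 5.81 ± 0.87 in iHep (adjusted p = 0.0014). Of 24 measured inducers of the reverse transition, 3 rose and 3 fell in iHep against TTF, and 3 rose and 2 fell in hepatocyte. Tgfb3 fell by 3.79 ± 0.74 and the BMP antagonist Grem1 fell by 8.77 ± 1.59 in iHep (adjusted p = 0.0061 and 0.0042, with Grem1 above the limit on 2 of 4 iHep arrays), while Bmp4 rose by 3.67 ± 0.78 in iHep and 3.92 ± 0.78 in hepatocyte (adjusted p = 0.01 and 0.0089).

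The genes whose levels ran most like each regulator over the 13 arrays were sought among 16508 other genes. The arrays share groups, so Pearson's r here mostly orders groups and is a description with no p. Those nearest to Twist1 were Hic1 (r = 0.985), Col5a1 (0.984) and Cd248 (0.976), the last a fibroblast and pericyte surface protein. Snai1 had Ccn5 (0.963), Loxl1 (0.962) and Lox (0.960), of which the last 2 encode collagen cross-linking enzymes. Snai2 had 3 protocadherin genes, Pcdhb6 (0.964), Pcdhb21 (0.960) and Pcdhb16 (0.958), members of a cluster of near-identical genes whose probes may share signal. Twist2 had Gpc1 (0.963), Tcf4 (0.955) and Icam5 (0.938), and Zeb1 had Pi15 (0.946), Pdlim4 (0.929) and Adamts6 (0.919). Zeb2 had Sgce (0.921), Stard6 (0.920) and Zfp652os (0.919).

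For the epithelial factors the nearest genes differed from 1 factor to the next. Ehf had Cxcl17 (r = 0.981), a chemokine of mucosal epithelium, Zc3h12a (0.973), an RNase of inflammatory transcripts, and Lrg1 (0.971), a secreted acute-phase protein. Elf3 had Rasgef1b (0.970), Spns2 (0.970) and Marveld3 (0.969), a tight junction gene. Marveld3 lay at -5.23, -4.25, -0.49 and -0.36 on iHep arrays 1 to 4. It was picked for its likeness to Elf3 over these arrays, so sharing the Elf3 split follows from that choice. Esrp1 had Tspan32 (0.963), Cysrt1 (0.957) and Atoh1 (0.954), and Grhl2, near the limit on most arrays, had Tmem269 (0.894), Rab11fip4 (0.854) and Cmtm6 (0.849).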

How the data were processed

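The 13 arrays were one-colour Agilent arrays. The deposited intensities are linear and were extracted by the authors with Agilent Feature Extraction 10.5.1.1, per the submitters' processing notes; how background was handled is not given in the sources used here. Of 45018 features, 33653 had 1 gene symbol in the platform's annotation, 56 had several and 11309 had none.

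Each intensity was put on the log2 scale, the 75th percentile of its own array was subtracted, and a gene's level was the mean of its probes (19087 genes, 8343 with several). The limit of measurement was 3 times the lowest intensity in a window of 101 features, as no background flag was used. Groups were compared in 1 limma model (limma 3.58.1, R 4.3.3) over iHep, hepatocyte and TTF, with Benjamini-Hochberg adjustment over all genes. TTF + 3TF and MEF had 1 array each and no test. The members and the gene lists were chosen with earlier results of these data known. By rule the text names the 10 regulators, Cdh1, Epcam, Vim and Cdh2, genes from the 2 largest called increases and 2 largest called decreases of each list in each comparison, and the 3 genes most correlated with each regulator; others are said to be chosen after their values were seen. An "at least" fold sets the bright group against the limit. The number of arrays limits precision. On simulated data with known changes the fit recovered 90% of genes changed by 4 log2 units and 48% of those changed by 2 in iHep against TTF, over 19087 genes with 50 changed at each size. Each simulated gene had the same spread in all groups. Real spreads differ by group, as for Snai2 (standard deviation 0.12 in TTF and 1.58 in iHep), so these shares are not recovery rates for the regulators. Tables and figures used Python 3.11.15, pandas 2.3.3, NumPy 2.4.6 and matplotlib 3.10.9. Alternatives covered scaling, limits, probe choice, the samples in the fit and each array left out.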

Additional observations from a re-analysis of the deposited data

Results flagged for a closer look

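Among the 20 groups of 4 arrays examined by gene and 32 by probe, 1 array stood apart from its group by Dixon's criterion. Ehf in iHep replicate 2 lay at -0.18, above the other 3 iHep arrays, and the gap made up 0.93 of the group's range against a critical value of 0.829. Chance alone gives such a value in about 1 in 20 groups, and the whole iHep range of Ehf was 0.54.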

How the results depend on the processing

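The counts of called genes were 2553 in iHep against TTF, 2363 in hepatocyte against TTF and 2624 in iHep against hepatocyte. With each probe tested on its own they were 4234, 3878 and 4398, over more features. Leaving out 1 array gave 1511 to 2750, 1181 to 2541 and 1867 to 2896; the lowest of the first 2 ranges came without TTF 3, and without TTF 2 they were 1574 and 1248. Without iHep 1 and 2, 4011 genes were called in iHep against TTF and 4140 in iHep against hepatocyte, and without hepatocyte 1 and 2, chosen after seeing the data, 1266 in hepatocyte against TTF. Same-numbered arrays did not deviate together (correlations 0.02 to 0.07, -0.06 to 0.11 and 0.06 to 0.10 in the 3 comparisons), and with the replicate number as a block the counts were 2174, 2289 and 2533. Under that block Twist2 passed in hepatocyte against TTF (-4.89, adjusted p = 0.037). Zeb1, Twist1, Twist2, Ehf and Elf3 kept their calls in iHep against TTF under the alternatives run by gene. Some differences that were not called changed sign. Grhl2 in hepatocyte against TTF was -0.023 with quantile normalization, -0.13 without TTF 2, -0.34 without hepatocyte 2 (0.35 without hepatocyte 3), -0.32 without hepatocyte 1 and 2 and -1.61 by probe 27370, which gave -0.67 in iHep against TTF. Zeb2 in hepatocyte against TTF was 0.0071 and 0.011 without hepatocyte 1 and hepatocyte 2 (-0.39 without hepatocyte 3), 0.39 without both and 0.042 by probe 23814. By probes 14585 and 43848 Zeb2 was 3.07 and 0.11 in iHep against TTF and 3.48 and 0.20 in iHep against hepatocyte. In iHep against hepatocyte, Zeb1 was 0.028 by its brightest, RefSeq mRNA probe, 18957. Snai2 was 0.63 without iHep 1 and 2 and 0.75 without hepatocyte 3 and 4, and Esrp1 was -0.61 without iHep 3 and 4. The causes were not tested. Levels near the limit, as of Grhl2 and Esrp1 on most arrays, limit what can be measured.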
